A study of Homo sapiens with 6 samples.

Results

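The genes described here are 36 named members of the DNA repair pathways that correct replication errors, repair double-strand breaks by recombination, remove crosslinks between DNA strands and copy past damaged bases. They were taken by symbol from a list, and all 36 were found among the 36459 gene symbols of the count table. The list holds 6 mismatch repair genes, 12 genes of homologous recombination, 10 Fanconi genes, 6 DNA polymerase genes (5 of translesion synthesis and POLQ) and the damage-signalling kinases ATM and ATR. RNA was sequenced in bulk from parental PC9 cells, a human lung adenocarcinoma line that depends on a mutated EGF receptor, and from PS-PC9 cells, the drug-tolerant persister cells left after 6 days in 15 µM erlotinib, an EGF receptor inhibitor. There were 3 libraries of untreated PC9 from 3 independent cultures and 3 libraries of PS-PC9, into which 9 separately kept erlotinib-treated cultures had been pooled. All came from 1 cell line with no genetic modification. The question asked was whether transcripts of genes that guard or relax replication fidelity stood at another level in the persister state.

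Mismatch repair begins when MSH6 or MSH3, each with the same partner subunit, binds a mispaired base or a loop left by the replicative polymerase. A MutL complex (PMS2, PMS1 or MLH3 with a common partner) is then recruited, and EXO1 removes the faulty strand. Homologous recombination copies a broken stretch from the sister chromatid: BRCA1 and BARD1 favour resection, PALB2 links them to BRCA2, and BRCA2 loads the recombinase with help from its paralogs. The Fanconi pathway marks a crosslink by adding ubiquitin to FANCD2 and FANCI, and translesion polymerases such as POLH, POLI, POLK, REV1 and polymerase zeta (REV3L) insert bases opposite lesions, some with low fidelity. Lower mismatch repair and greater use of such polymerases are among the textbook routes by which stressed cells can acquire mutations faster. RNA levels measure neither the proteins nor the mutation rate.

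Of the 36 members, all of which passed the filter on low counts, 5 were higher in PS-PC9, 13 were lower and 18 did not pass the limit (an adjusted p under 0.01 in edgeR's quasi-likelihood test over all genes). The members that rose were EXO1, REV3L, BRCA2, FANCD2 and RAD51C. Those that fell were FANCG, POLI, RAD51B, FANCL, FANCE, POLK, PMS1, MSH6, MLH3, RAD52, PALB2, REV1 and XRCC3. In shares, 13.9% of the members rose and 36.1% fell, where 28.7% of the 14626 genes tested rose and 28.1% fell. In both directions together 50% of the members passed the limit, against 56.8% of all genes. At an adjusted p under 0.05, 8 members were higher and 15 lower, where 33.9% and 34.0% of all genes were. The median log2 fold change was −0.077 over the members and −0.0061 over all genes tested. In 24 members the 3 PC9 libraries and the 3 PS-PC9 libraries did not overlap in CPM (counts scaled to the size of the library and TMM-normalized), as in 71.3% of all genes. The changes were small: 3 members (EXO1 upward, FANCG and POLI downward) passed the limit with a fold above 1.5, whereas 23.9% of all genes did.

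**Figure D1:**
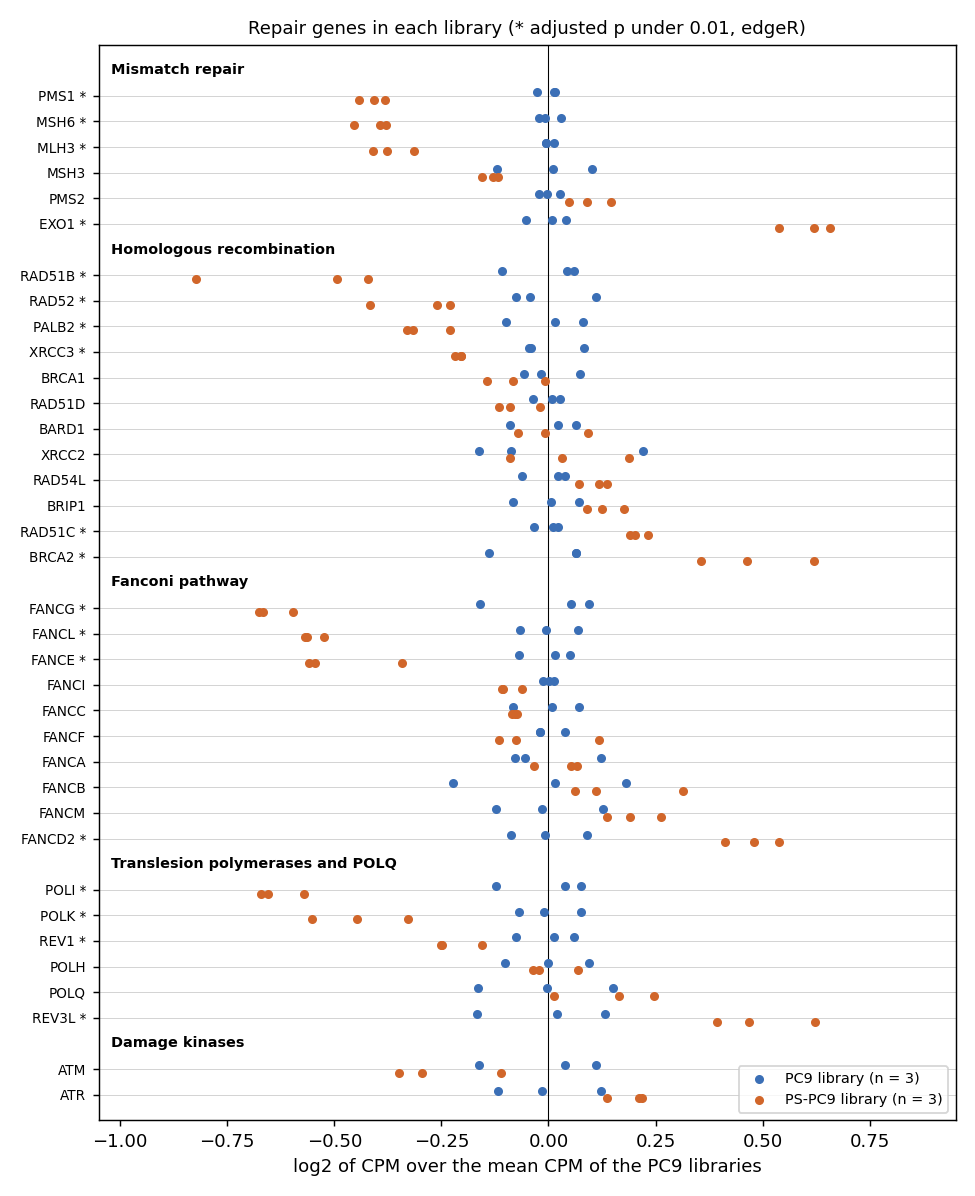
Level of each of the 36 repair genes in each library, as the log2 of CPM over the mean CPM of the 3 PC9 libraries, grouped by pathway. Blue points are PC9 libraries and orange points are PS-PC9 libraries; an asterisk marks the 18 genes past the limit, and the orange points lie clear of the blue ones on the left for genes such as FANCG and POLI and on the right for EXO1 and FANCD2.

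The libraries held 29476725 to 34893782 gene counts, of which the members took 0.132% to 0.139% in PC9 1, 2, 3 and PS-PC9 1 and 0.124% to 0.125% in PS-PC9 2 and 3. Markers of PC9 epithelium (7 genes) summed to 8237 to 8847 CPM in PC9 and 6769 to 7030 CPM in PS-PC9. The sums for fibroblast markers (6 genes, COL3A1 at 0) were 10.6 to 11.3 and 27.1 to 30.0 CPM, for leukocyte markers (5 genes, CD3E at 0) 76.4 to 78.9 and 19.5 to 22.3 CPM, and for endothelial markers (4 genes) 8.29 to 9.06 and 3.56 to 3.93 CPM. Their part in the results below was not tested, and in bulk RNA fewer cells of a type cannot be told apart from less RNA per cell.

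For 35 members a RefSeq promoter window was at hand (FANCI is named only), running from 250 bases before to 50 after an annotated start, in GRCh38.p14. Both strands were searched for the 4 spellings of one E2F consensus (TTTGGCGC, TTTCCCGC, TTTGCCGC and TTTCGCGC), which E2F factors of the cell cycle bind, for the CHR element (TTTGAA) and for the NF-Y box (CCAAT). An E2F spelling was present for 10 of the 35 members (11 of their 49 windows) and in 3.30% of all 34796 windows. By result, it was present for 3 of the 5 members that rose (EXO1, FANCD2 and REV3L), for 2 of the 13 that fell (MSH6 and POLI) and for 5 of 17 others. The CHR element was found for 4 members (4 of the 49 windows) and in 15.2% of all windows. It was present for 0 of the 5 that rose, 0 of the 13 that fell and 4 of 17 others. The NF-Y box was found for 12 members (15 of the 49 windows) and in 34.6% of all windows. By result, the NF-Y box was present for 0 of the 5 that rose, 4 of the 13 that fell and 8 of 17 others. A member can have several windows and the shares of all windows count each once, so these shares are descriptions.

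The stretches from 110 bases before to 20 bases after the start are shown for the 4 members past the limit with an E2F spelling in that stretch, and for PMS1, whose neighbour on the opposite strand rose. They are written 5′ to 3′ on the gene's strand, with E2F spellings and NF-Y boxes on either strand in capitals. The stretches are EXO1 at chr1:241848094-241848223 (plus strand), FANCD2 at chr3:10026327-10026456 (plus), REV3L at chr6:111483199-111483328 (minus), MSH6 at chr2:47783035-47783164 (plus) and PMS1 at chr2:189784340-189784469 (plus).
EXO1: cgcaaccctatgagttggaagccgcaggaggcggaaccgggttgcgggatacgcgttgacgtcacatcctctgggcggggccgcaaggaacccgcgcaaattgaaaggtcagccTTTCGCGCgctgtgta
FANCD2: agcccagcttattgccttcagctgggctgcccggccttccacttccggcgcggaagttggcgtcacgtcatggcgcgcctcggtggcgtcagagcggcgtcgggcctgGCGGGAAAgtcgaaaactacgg
REV3L: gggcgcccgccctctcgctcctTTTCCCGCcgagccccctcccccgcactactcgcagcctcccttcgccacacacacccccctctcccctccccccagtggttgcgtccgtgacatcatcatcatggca
MSH6: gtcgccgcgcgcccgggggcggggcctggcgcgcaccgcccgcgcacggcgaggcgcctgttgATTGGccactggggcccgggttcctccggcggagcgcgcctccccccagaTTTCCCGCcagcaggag
PMS1: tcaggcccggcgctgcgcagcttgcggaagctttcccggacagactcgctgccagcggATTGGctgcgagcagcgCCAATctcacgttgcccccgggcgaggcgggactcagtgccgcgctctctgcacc
The E2F spellings of EXO1, FANCD2 and MSH6 lay within a few bases of the start. EXO1 and FANCD2 rose while MSH6 fell. EXO1, MSH6 and REV3L also have windows at other annotated starts without an E2F spelling, and which start was used was not tested.

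Of the mismatch repair genes, MSH6, PMS1 and MLH3 were lower in PS-PC9, EXO1 was higher, and MSH3 and PMS2 did not pass the limit. Thus 66.7% of the 6 passed it, against 56.8% of all genes. MSH6 (ENSG00000116062, chr2:47695530-47810063), which recognises single mispaired bases and short loops, stood at 234, 236 and 242 CPM in PC9 and at 183, 181 and 173 CPM in PS-PC9. The groups did not overlap, and the level fell by 0.41 ± 0.036 on the log2 scale (SE, n = 3 and 3; adjusted p = 2.38e-06). PMS1 (ENSG00000064933), a MutL subunit with a minor part in mismatch correction, was at 13.9, 13.5 and 13.9 CPM and then at 10.1, 10.6 and 10.4 CPM. It fell by 0.41 ± 0.063 (adjusted p = 0.000160), with every PS-PC9 library below every PC9 library. MLH3 (ENSG00000119684), the MutL subunit with a main role in meiotic recombination, went from 34.1, 34.1 and 34.5 CPM to 27.5, 25.7 and 26.3 CPM, a log2 fold change of −0.37 ± 0.047 (adjusted p = 4.12e-05). These 3 genes thus stood about 22% to 25% below their PC9 mean.

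EXO1 (ENSG00000174371, chr1:241847967-241895148), the exonuclease that excises the mismatched strand and also resects broken ends, ran from 46.5, 45.5 and 43.6 CPM in PC9 to 65.6, 71.3 and 69.5 CPM in PS-PC9. Its log2 fold change of 0.61 ± 0.047 (adjusted p = 7.85e-07) was the largest rise among the members. MSH3, which recognises larger loops, had 37.9, 32.5 and 35.6 CPM in PC9 and 32.5, 31.7 and 32.2 CPM in PS-PC9. PC9 replicate 2 lay just below PS-PC9 replicate 1, so the conditions overlapped. The log2 fold change was −0.135, with a 95% interval from −0.27 to −0.0049 and an adjusted p of 0.0623, and MSH3 passed the limit without PC9 replicate 2 (−0.19, adjusted p = 0.00571). PMS2, the MutL endonuclease that nicks the faulty strand, had 48.4, 49.0 and 50.02 CPM and then 54.4, 52.3 and 50.8 CPM (log2 fold change 0.094, interval −0.0021 to 0.19, adjusted p = 0.0765). Near-identical pseudogene copies of PMS2 lie in the genome, so its counts are uncertain.

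**Figure D2:**
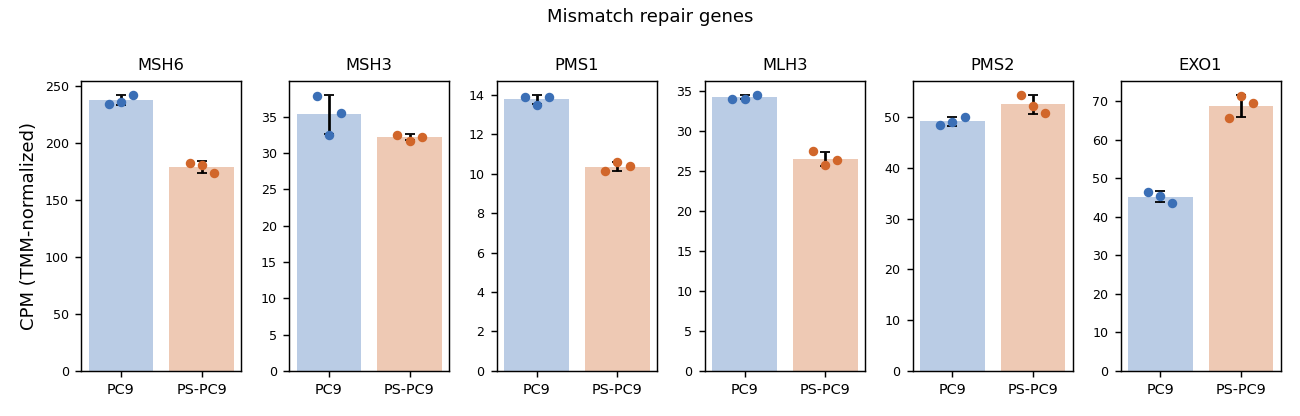
Levels of the 6 mismatch repair genes in TMM-normalized CPM, with each library as a point, the mean of 3 libraries as a bar starting at 0 and the SD as the error bar. MSH6 stood between 234 and 242 CPM in PC9 and between 173 and 183 CPM in PS-PC9, while EXO1 went from 43.6 to 46.5 up to 65.6 to 71.3 CPM.

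Since MSH6 and MSH3 compete for one partner, their balance was compared within each library. The count ratio of MSH6 to MSH3 was 6.18, 7.28 and 6.82 in PC9 and 5.62, 5.71 and 5.38 in PS-PC9. All PS-PC9 ratios lay below all PC9 ratios, a difference of −0.28 on the log2 scale (two-sided exact permutation test, p = 0.1, the smallest p that 3 against 3 libraries can give).

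In homologous recombination 2 of 12 members rose and 4 fell, with a median log2 fold change of −0.036. Thus 50% passed the limit, against 56.8% of all genes. BRCA2 (ENSG00000139618, chr13:32315086-32400268), which loads the recombinase onto single-stranded DNA, had 27.0, 23.4 and 27.0 CPM in PC9 and 39.6, 33.0 and 35.5 CPM in PS-PC9. It rose by 0.48 ± 0.077 on the log2 scale (adjusted p = 0.000209) with no overlap of groups, but lost its call when a trend of all genes on transcript length, described below, was taken out (0.18, adjusted p = 0.0519). RAD51C (ENSG00000108384), a recombinase paralog shared by both paralog complexes, rose from 35.7, 34.6 and 35.97 CPM to 40.7, 41.6 and 40.4 CPM, a log2 fold change of 0.21 ± 0.043 (adjusted p = 0.00140). Another paralog moved the other way: RAD51B (ENSG00000182185, chr14:67819779-68730218) had 5.06, 5.61 and 5.67 CPM in PC9 and 3.87, 3.08 and 4.07 CPM in PS-PC9, and fell by 0.57 ± 0.122 (adjusted p = 0.00174). With 97 to 191 counts per library it was the least abundant of the 36 by CPM.

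PALB2, the bridge between BRCA1 and BRCA2, fell by 0.29 ± 0.057 (adjusted p = 0.000850), from a mean of 39.9 ± 2.49 to 32.6 ± 1.25 CPM (SD). XRCC3, the partner of RAD51C in the smaller paralog complex, fell by 0.21 ± 0.051 (adjusted p = 0.00366), and RAD52, which anneals complementary strands, fell by 0.30 ± 0.085 (adjusted p = 0.00886). The calls of the last pair were near the limit. RAD52 lost its call when any 1 of the 6 libraries was left out (adjusted p from 0.0102 without PC9 replicate 2 to 0.0439 without PS-PC9 replicate 2), in DESeq2 (0.0265) and with gene counts summed from transcripts (0.0130), and XRCC3 lost its call without PS-PC9 replicate 1, 2 or 3 (0.0134, 0.0147 and 0.0177).

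The other 6 recombination members did not pass the limit. For BRCA1 (−0.078, interval −0.19 to 0.033), its partner BARD1 (0.0042, −0.12 to 0.13), and the paralogs RAD51D (−0.075, −0.21 to 0.061) and XRCC2 (0.045, −0.18 to 0.27) the log2 fold change had an interval that included 0. For the helicase BRIP1 (0.13, interval 0.015 to 0.25) and the motor protein RAD54L (0.11, 0.0025 to 0.21) it lay above 0 but the adjusted p was 0.0454 and 0.0654. The count ratio of BRCA1 to BARD1, which are stable only as a pair, was 1.77, 1.80 and 1.71 in PC9 and 1.65, 1.67 and 1.68 in PS-PC9 (log2 difference −0.083, two-sided exact permutation p = 0.1, the smallest possible).

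In the Fanconi pathway 1 of 10 members rose and 3 fell, so 40% passed the limit, against 56.8% of all genes. The members that fell belong to the core complex, the ubiquitin ligase that acts on FANCD2 and FANCI. So do FANCA, FANCB, FANCC and FANCF, which did not pass the limit. FANCG (ENSG00000221829, chr9:35073835-35080004), a core scaffold, had 28.2, 33.7 and 32.7 CPM in PC9 and 19.7, 19.9 and 20.9 CPM in PS-PC9. It fell by 0.64 ± 0.070 on the log2 scale (adjusted p = 1.09e-05), the largest fall among the members. FANCL (ENSG00000115392, chr2:58159243-58241410), the catalytic ligase subunit, had 28.04, 29.5 and 26.9 CPM and then 19.6, 19.0 and 19.0 CPM, and fell by 0.55 ± 0.054 (adjusted p = 4.94e-06). FANCE (ENSG00000112039, chr6:35452338-35467104), which connects the core complex to FANCD2, had 7.06, 6.49 and 6.89 CPM and then 5.38, 4.67 and 4.62 CPM, and fell by 0.48 ± 0.096 (adjusted p = 0.00106). The groups did not overlap for any of these 3 genes.

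FANCD2 (ENSG00000144554, chr3:10026370-10101932), the substrate, moved the opposite way, from 33.0, 30.8 and 29.1 CPM to 44.9, 43.2 and 41.2 CPM. It rose by 0.48 ± 0.057 (adjusted p = 2.32e-05). Of its counts, 36.3% in PC9 and 20.9% in PS-PC9 lay on transcripts of the current annotation (GENCODE 44). The rise of FANCD2 thus lay in counts on transcripts outside that annotation. FANCI, the partner of FANCD2, went from 113, 115 and 114 CPM to 109, 106 and 106 CPM. This was a log2 fold change of −0.093 that did not pass the limit (interval −0.17 to −0.014, adjusted p = 0.0392). The count ratio of FANCD2 to FANCI was accordingly 0.292, 0.268 and 0.255 in PC9 and 0.411, 0.408 and 0.390 in PS-PC9, with no overlap (log2 difference 0.57, two-sided exact permutation p = 0.1, the smallest possible). The core subunits FANCA (0.028), FANCB (0.16), FANCC (−0.079) and FANCF (−0.023) and the translocase FANCM (0.20), which anchors the complex to DNA, did not pass the limit in log2 fold change. FANCM passed it without PC9 replicate 1 (0.26, adjusted p = 0.00536).

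The translesion polymerases divided: the 3 that fell were POLI, POLK and REV1, of the Y family, and the 1 that rose was REV3L. With POLQ included, 66.7% of the 6 polymerase genes passed the limit, against 56.8% of all genes. POLI (ENSG00000101751, chr18:54269517-54321266), an error-prone inserter, had 9.44, 9.196 and 8.23 CPM in PC9 and 5.69, 5.62 and 6.03 CPM in PS-PC9. It fell by 0.63 ± 0.088 on the log2 scale (adjusted p = 8.02e-05). POLK (ENSG00000122008), which bypasses bulky adducts, had 30.1, 27.2 and 28.3 CPM and then 22.7, 20.9 and 19.5 CPM, and fell by 0.44 ± 0.066 (adjusted p = 0.000132). REV1 (ENSG00000135945), the scaffold that recruits the other polymerases, had 39.8, 36.2 and 38.5 CPM and then 34.3, 32.1 and 32.1 CPM, and fell by 0.22 ± 0.052 (adjusted p = 0.00349). In all of these the groups did not overlap, but REV1 lost its call without PC9 replicate 3 (adjusted p = 0.0167), PS-PC9 replicate 2 (0.0206) or PS-PC9 replicate 3 (0.0200).

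REV3L (ENSG00000009413, chr6:111299028-111483715), the catalytic subunit of polymerase zeta that extends from inserted bases, had 48.8, 39.7 and 45.1 CPM in PC9 and 68.5, 58.5 and 61.6 CPM in PS-PC9, and rose by 0.50 ± 0.077 (adjusted p = 0.000182). With the trend on transcript length taken out it was at 0.22 and no longer past the limit (adjusted p = 0.0246). POLH, which copies accurately past ultraviolet dimers, had 19.4, 18.1 and 20.7 CPM and then 19.1, 20.4 and 18.9 CPM. Its groups overlapped and its log2 fold change of 0.0049 had an interval from −0.14 to 0.15. POLQ, the polymerase of microhomology-mediated end joining, had 32.7, 26.3 and 29.4 CPM and then 35.01, 29.7 and 33.1 CPM (0.14, interval −0.038 to 0.33), also with overlap.

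Neither kinase passed the limit. ATM, which responds to double-strand breaks, had 42.9, 35.6 and 40.9 CPM in PC9 and 36.9, 31.3 and 32.5 CPM in PS-PC9 (log2 fold change −0.25 ± 0.079, adjusted p = 0.0158), with overlapping groups. ATR, which responds to stalled forks, had 65.7, 55.7 and 59.8 CPM and then 70.3, 70.0 and 66.4 CPM (0.19 ± 0.059, adjusted p = 0.0143), without overlap. Both lay close to the limit. ATM passed it without PC9 replicate 2 (−0.32, adjusted p = 0.00112) or PS-PC9 replicate 1 (−0.32, 0.00634), and ATR without PC9 replicate 1 (0.25, 0.000455). DESeq2 called both (0.00655 and 0.00597).

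Per kilobase of the MANE Select transcript (the agreed reference transcript of a gene, lacking for POLK), MSH6 was the most abundant member in PC9, at 55.7 ± 1.01 CPM per kilobase (SD), followed by FANCI at 24.1 ± 0.212 and FANCL at 17.0 ± 0.791. MSH6 and FANCI kept the first places in PS-PC9, at 42.0 ± 1.16 and 22.6 ± 0.412 CPM per kilobase, and EXO1 moved from place 6 to place 3 (13.1 to 19.9). RAD51D at 1.39 and POLI at 1.49 CPM per kilobase were the lowest in PC9. MSH6 thus stood above every other member by more than its spread in both conditions at these lengths. The order depends on the length used: of 29 members whose share could be read, 21 had at least 50% of their PC9 counts on the MANE Select transcript, but RAD51C had 6.02%, RAD51B 4.91% and POLI 38.7%, and the share of MSH6 could not be read.

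**Figure D3:**
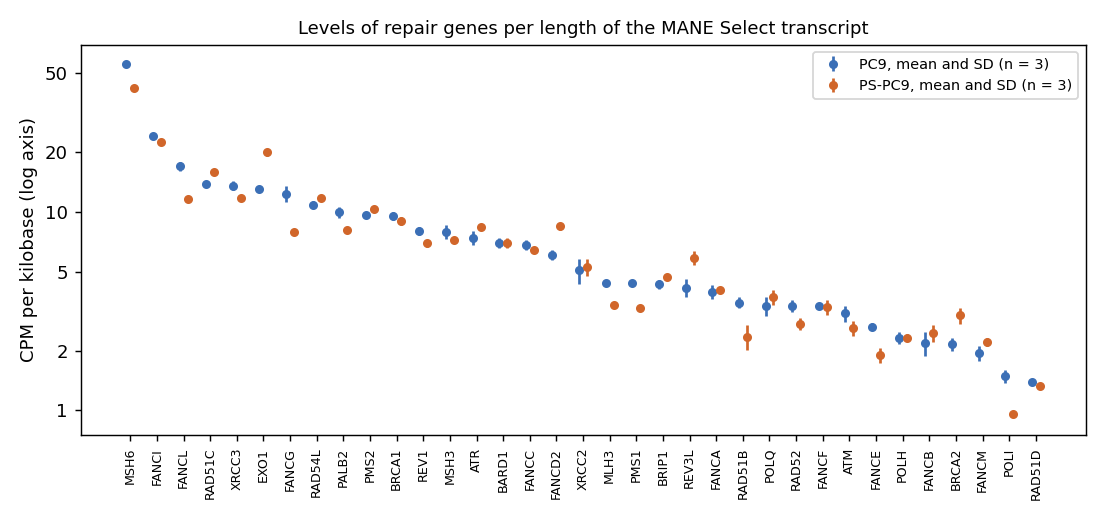
Levels of 35 repair genes in CPM per kilobase of the MANE Select transcript on a log axis, ordered by the PC9 mean, with the mean and SD of 3 libraries in PC9 (blue) and PS-PC9 (orange). MSH6 is highest in both conditions (55.7 and 42.0), and EXO1 and FANCD2 lie above, and FANCL and FANCG below, their PC9 levels in PS-PC9.

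Longer transcripts tended to rise in these libraries. Over the 13121 genes with a MANE Select length (89.7% of those tested) the median log2 fold change ran from −0.116 in the shortest of 4 equally filled length classes over −0.036 and 0.025 to 0.12 in the longest. Repair genes are long: 14 of 35 members lay in the longest class and 2, both of which fell, in the shortest. Across the members, log2 fold change and log2 length had a Pearson r of 0.43 and a Spearman rho of 0.42 (n = 35), and across all genes 0.15 and 0.20. These genes share the same 6 libraries and are no independent replicates. BRCA2 (11954 bases) and REV3L (10706 bases) were among the longest members. When the trend of all other genes on length was taken out, BRCA2 had a log2 fold change of 0.18 (adjusted p = 0.0519) and REV3L of 0.22 (adjusted p = 0.0246), both no longer past the limit. EXO1 (0.60), FANCD2 (0.36) and RAD51C (0.25) kept their calls. In the same refit XRCC3 (adjusted p = 0.0119) and RAD52 (0.0146) lost theirs, and MSH3 (−0.22, 0.00595), BRCA1 (−0.25, 0.00117), RAD51D (−0.33, 0.000645), FANCI (−0.195, 0.000592) and ATM (−0.56, 8.59e-05) passed the limit as lower, which left 3 members higher and 16 lower with a median of −0.185.

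**Figure D4:**
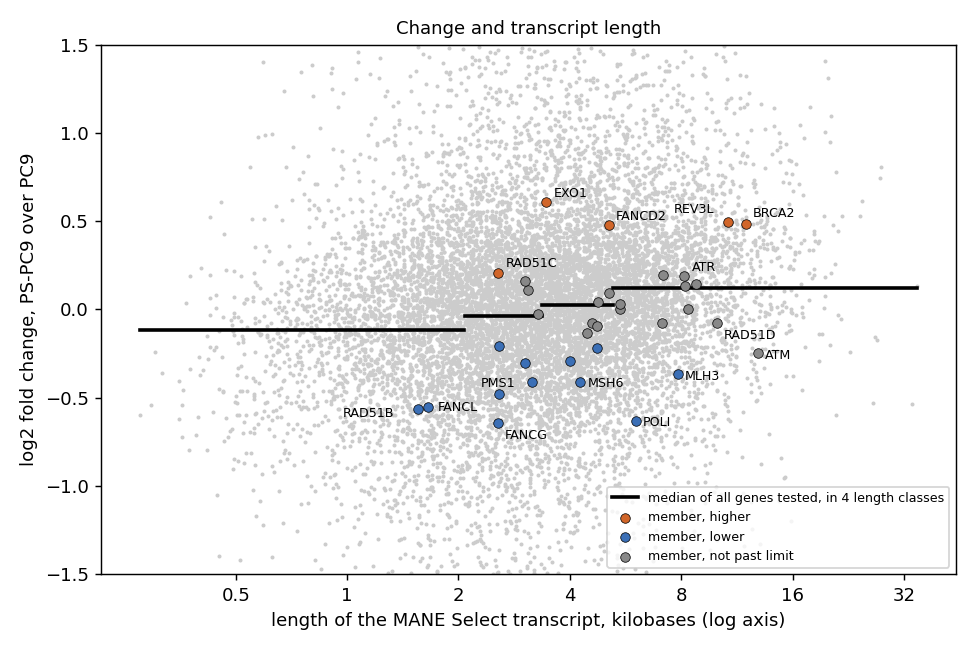
Log2 fold change of PS-PC9 over PC9 against the length of the MANE Select transcript in kilobases on a log axis, for all genes tested (grey, those beyond 1.5 in size not drawn) and 35 repair genes (orange higher, blue lower, dark grey not past the limit), with the medians of the 4 length classes as black bars. The bars climb from −0.116 to 0.12, and BRCA2 and REV3L lie far to the right while EXO1 and FANCD2 lie at middle lengths.

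Transcripts could be read for 31 members, those with at least 95% of their gene count on transcripts of the current annotation (GENCODE 44). For MSH6, MLH3, FANCD2, REV3L and FANCB the annotation held too little of the count, 20.9% to 78.1% in PS-PC9, and no transcript value is given. Among 140 transcripts tested, 1 was higher and 0 were lower in PS-PC9, where 3.89% and 3.91% of all 54499 transcripts tested were. At an unadjusted p under 0.05 there were 11 higher and 15 lower, where 14.2% and 14.8% of all transcripts were. The 1 call was the MANE Select transcript of EXO1 (ENST00000366548), with a log2 fold change of 0.66 ± 0.066 (adjusted p = 0.00183). It made up 55.4 ± 1.62% of the EXO1 counts in PC9 and 58.6 ± 4.86% in PS-PC9, so its share differed by less than the spread between libraries. The call was lost without PC9 replicate 2 or 3 or PS-PC9 replicate 1 or 3. Relative use of transcripts within a gene (edgeR's diffSpliceDGE with a Simes p per gene) changed in 0 of 27 members with several tested transcripts, against 1.88% of 10545 genes, and 0 of the 27 had an unadjusted p under 0.05. Without PC9 replicate 1 or PS-PC9 replicate 1 the count was 1. REV3L, set aside above, is not among the 27, although the part of its count that could be read passed the limit for usage. The shares of all genes and of all transcripts were not restricted to genes with at least 95% of their count on current transcripts.

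Many repair genes start close to a gene on the opposite strand. By the annotation, 22 pairs of a member and a neighbour that are reported here had starts within 1000 bases of each other on opposite strands, and in 12 pairs both were tested. The start taken was the outermost annotated one of each gene. BRCA1 and RAD52 also have promoter windows at another annotated start, far from that one (chr17:43125345-43125474 and chr12:949675-949804). Which start was used was not tested. In 3 pairs both passed the limit in opposite directions: PMS1 fell while ORMDL1 rose (0.396), PALB2 fell while DCTN5 rose (0.35), and RAD52 fell while ERC1 rose (0.595). In 1 pair both fell, XRCC3 and ZFYVE21 (−0.14). In 5 pairs only the neighbour passed, AIMP2 beside PMS2 (0.93), NBR1 beside BRCA1 (−0.62), MOSPD2 beside FANCB (−0.25), FKBP3 beside FANCM (0.20) and XPO5 beside POLH (0.78). In 1 pair only the member did (RAD51C beside TEX14, −0.65 with 12 to 24 counts per library) and in 2 neither (FANCF beside GAS2, ATM beside NPAT). Whether the counting used the strand of reads is not given in the sources used here, so reads where such genes overlap may be assigned to either.

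**Figure D5:**
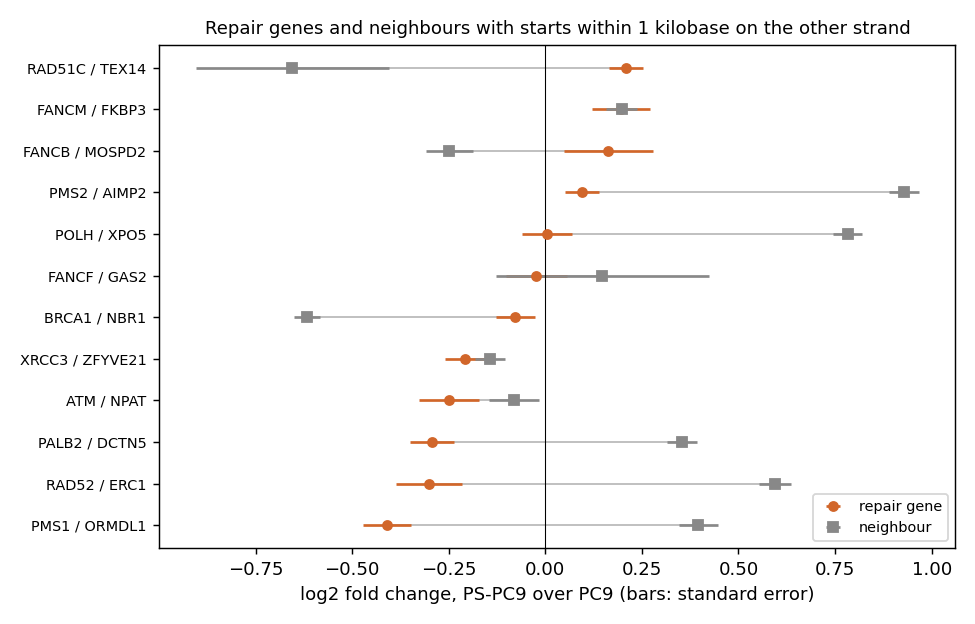
Log2 fold change of PS-PC9 over PC9, with the standard error as a bar, for 12 repair genes (orange circles) and the neighbours on the opposite strand with a start within 1000 bases (grey squares), a line joining each pair. Starts are the outermost annotated ones, and BRCA1 and RAD52 also have another annotated start far from the neighbour. The symbols lie on opposite sides of 0 for PMS1 and ORMDL1, PALB2 and DCTN5, and RAD52 and ERC1, and on the same side for XRCC3 and ZFYVE21.

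Further genes of these pathways, taken from lists, were read in the same fit. Of 33 genes on the list of other recombination genes 9 rose and 9 fell (median −0.0089). The resection factor RBBP8 (0.48) and NBN (0.45) were among the former and RMI2 (−0.89) and ABRAXAS1 (−1.15) among the latter. Of 21 other Fanconi and crosslink genes 4 rose and 5 fell (median −0.059), with USP1, the enzyme that removes ubiquitin from FANCD2, at 0.43 and the nuclease subunit ERCC1 at −0.41. Of 14 other translesion and tolerance genes 2 rose and 5 fell (median −0.072). PCNA, the clamp on which polymerases are exchanged, was at −0.24 and the gap-filling polymerase gene POLM at −1.13. The shares that passed the limit were 54.5%, 42.9% and 50% in these lists, against 56.8% of all genes.

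Of 18 checkpoint genes 3 rose and 6 fell (median −0.027). CLSPN, the adaptor between ATR and CHEK1, rose by 0.65, and the effector kinases CHEK1 (−0.285) and CHEK2 (−0.55) fell. Of 14 end-joining genes 4 rose and 3 fell (median 0.044), led by PRKDC (0.80), and of 25 excision repair genes 5 rose and 12 fell (median −0.12), with TDG at 0.82 and MUTYH, which removes adenine opposite oxidised guanine, at −1.03. Of 9 cytidine deaminase genes, which can mutate DNA or RNA of viruses and cells, 6 were tested: 1 rose, APOBEC3B (0.32), and 5 fell, among them APOBEC3G (−1.51), APOBEC3F (−1.09) and APOBEC3C (−0.53). APOBEC3B went from 73.3 ± 2.68 to 91.3 ± 2.16 CPM (SD). These deaminase genes are similar in sequence, which makes the split of their counts uncertain. The shares past the limit were 50% of the checkpoint and 50% of the end-joining genes, 68% of the excision repair genes and 100% of the 6 deaminase genes, against 56.8% of all genes.

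Many repair genes are transcribed with the cell cycle, so proliferation markers were set beside them. Of 40 such markers 18 rose and 11 fell (median 0.093): MYBL2 (1.35), FOXM1 (0.90) and PLK1 (0.67) rose, and the licensing genes CDT1 (−0.999), MCM7 (−0.52) and MCM5 (−0.57) fell. These RNA levels do not measure the rate of growth, and the authors describe their PS-PC9 cells as cycling much more slowly than PC9. Of 19 p53 target genes 10 rose and 5 fell (median 0.27), with GADD45A at 1.51 and CDKN1A at 1.32 and, downward, CCNG1 at −0.67. In all 72.5% of the proliferation markers and 78.9% of the p53 targets passed the limit, more than the 56.8% of all genes. The part of the cell cycle in the changes of EXO1, BRCA2 and FANCD2 was not tested.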

How the data were processed

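The authors sequenced poly-A RNA, passed the reads through FASTP and quantified them by pseudoalignment in kallisto 0.46.1 against Ensembl 96 (GRCh38.p13). They deposited kallisto's estimated counts (expected counts, rounded to whole numbers, not normalized) per gene symbol and per transcript. The assignment of reads to similar transcripts carries an uncertainty that enters no test. Groups were taken from the labels and dose and cultures from the study's methods. The members and lists were chosen with earlier results of these data known. Every member was to be named, and up to 3 genes per list and direction by smallest p.

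In R 4.3.3, genes passing filterByExpr in edgeR 4.0.16 were normalized with TMM and compared without a block by the quasi-likelihood test, with Benjamini-Hochberg adjustment over all tested genes and a limit of 0.01. Errors of log2 fold changes are SEs (the change divided by the square root of F), intervals are 95%. CPM are TMM-normalized. Depth was 29476725 to 34893782 counts per library. The precision depends on the spread between libraries and, for genes with few counts, on the counts as well. For PS-PC9, whose libraries are pools of cultures, p-values measure the spread between pools. The scripts were tested on simulated data. Same-numbered libraries correlated by 0.124, 0.0236 and 0.0215 in their deviations from the group means, so the numbers were not taken to pair them. Gene positions and lengths are from GENCODE 44 (GRCh38) and promoters from RefSeq (GRCh38.p14). The alternatives used DESeq2 1.42.0, limma 3.58.1 and other settings. Removal of a loess trend (span 0.5) on length or GC content, estimated without the members, was added after seeing the data. POLK, without a MANE Select length, was left unadjusted. Figures were drawn with matplotlib 3.10.9. Some genes of these pathways are not reported here.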

Additional observations from a re-analysis of the deposited data

How the results depend on the processing

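The 18 members past the limit kept their direction under every alternative run. Of 535 values of single members under alternatives, 472 kept direction and side of the limit, 19 lost and 20 gained a call, and 24, all of members not past the limit, changed sign. The calls or signs of 16 members never changed. Counts of members higher were 3 when genes were summed from transcripts (possible for 31 members, of which 3 were higher in the main comparison too), 3 with the length trend taken out, 8 at an adjusted p under 0.05 (with 15 lower) and 1 with a fold above 1.5, where 2 were lower. The members' median was −0.13 with library size only and −0.185 with the length trend taken out; the median of all genes was then −0.059 and −0.032. With each library left out, 5 to 7 members were higher, 10 to 14 lower, and the median ran from −0.096 to −0.056.

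Signs changed with the length trend taken out for PMS2 (−0.019), BARD1 (−0.12), BRIP1 (−0.076), XRCC2 (−0.059), FANCA (−0.096), POLH (−0.21), POLQ (−0.081) and ATR (−0.016), with library size only for BARD1 (−0.049), XRCC2 (−0.0076), FANCA (−0.025) and POLH (−0.049), and with upper-quartile normalization for BARD1 (−0.039), FANCA (−0.015) and POLH (−0.038). With a library left out, values on both sides of 0 were found for BARD1 (−0.040 to 0.041), XRCC2 (−0.031 to 0.17), FANCA (−0.010 to 0.094), FANCF (−0.093 to 0.023) and POLH (−0.043 to 0.054). The cause was not tested. With the GC trend taken out XRCC3 had an adjusted p of 0.0103.

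The replicate block gave 6 members higher and 14 lower, 18 of the 20 called in the same direction as without it; ATM and ATR were added, and 0 member transcripts were then higher. The exact test over same-numbered pairs could not go below p = 0.25 for the 3 ratios. Member transcripts were 4 higher and 7 lower at an adjusted p under 0.05, 1 lower with at least 1 CPM in 3 libraries, and with a library left out 0 to 1 higher, 0 to 1 lower and 0 to 1 members with changed usage. The SE of the log2 fold change was largest for RAD51B (0.122), FANCB (0.116) and XRCC2 (0.0999). RAD51B had 97 to 191 and FANCB 192 to 257 counts per library, so counting noise as well as the spread between libraries enters their SEs.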
